A study of Mus musculus with 6 samples.

Results

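The genes described here are 9 genes that make, bind, break down or respond to retinoic acid. They were taken by name as Cyp26b1, Aldh1a1, Aldh1a2, Aldh1a3, Crabp1, Crabp2, Rarb, Rarg and Rarres1, and all 9 were found among the 22180 named genes of the series, each with 1 probe set of its own. The study compared fibroblasts of 3 samples from K14-PTHrP transgenic mice (KrP), whose ventral skin is nipple-like, with those of 3 samples from wild-type (WT) littermates, all female, 8 to 12 weeks old and C57BL/6, with 1 expression array per sample. The KrP transgene places parathyroid hormone-related protein under the keratin 14 promoter, known for its activity in basal keratinocytes. Keratin 14 itself (Krt14) had mean log2 expression values of 6.60 in KrP and 6.96 in WT samples, and whether the transgene was expressed in the sorted cells was not tested. The WT skin is described as telogen, the resting phase of the hair cycle, and the KrP labels name no phase. Cells were pooled before the sort, from 3 mice by a label that does not say whether this is per sample or per genotype. The sort kept live CD140+ cells that lacked CD31, CD45, CD117 and CD49f. The descriptions of KrP 2 and KrP 3 name a different keratin from the genotype field, which was used.

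Retinoic acid is the active form of vitamin A. Retinol is oxidised to retinal and then, by retinaldehyde dehydrogenases of the Aldh1a family, to retinoic acid, which Cyp26 enzymes degrade. Inside the cell it is carried by Crabp proteins and acts through the nuclear receptors Rara, Rarb and Rarg, which pair with Rxr receptors on DNA. In skin the pathway is known for its control of keratinocyte differentiation, hair follicles and sebaceous glands.

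All values are log2 expression values per array, and each log2 fold change is KrP minus WT. The array medians lay between 6.34 and 6.43. The 95th percentile of the 1105 olfactory receptor genes, 6.28, served as a guide to background, since differences near or below it are compressed. The fibroblast marker Pdgfra had a mean of 13.47 in KrP and 13.23 in WT samples, whereas Ptprc (CD45) had 4.65 and 4.85, Pecam1 (CD31) 6.68 and 6.73, and Epcam 5.06 and 5.45. Other markers of blood and endothelial cells were well above the guide, with means of 9.34 in KrP and 9.48 in WT samples for Cd68, 7.92 and 7.19 for Csf1r, 8.33 and 7.79 for Cdh5, and 7.30 and 8.71 for Kdr. KrP 2 stood nearer to WT than the other KrP samples did. It was the KrP sample closest to the WT mean for 42.9% of all genes, for 64.2% of the genes that passed the test, and for 6 of the 9 retinoic acid genes. Results that turn on it are therefore given with and without it.

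Of the 9 genes, 2 fell in KrP fibroblasts and 0 rose at a Benjamini-Hochberg adjusted p under 0.05 by limma, against 2.18% of all genes in either direction, 1.15% higher and 1.03% lower. The genes that fell were Cyp26b1, the enzyme that degrades retinoic acid, and Rarres1. Aldh1a3, a retinoic acid making enzyme, had higher values in every KrP sample than in any WT sample and did not pass with all 6 samples weighted equally and no block, and Rarb was higher in 2 of the 3 KrP samples. The median log2 fold change over the 9 genes was 0.02, beside 0.01 over all genes. The values of KrP and WT samples did not overlap for 3 of the 9 genes, Cyp26b1, Aldh1a3 and Rarres1, against 20.3% of all genes. Rarb overlapped and had an unadjusted limma p of 0.0393. The share of all genes under an unadjusted p of 0.05 was not counted, so no count of the 9 is given at that threshold. With 9 genes, such counts can be read only beside the values of each.

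**Figure D1:**
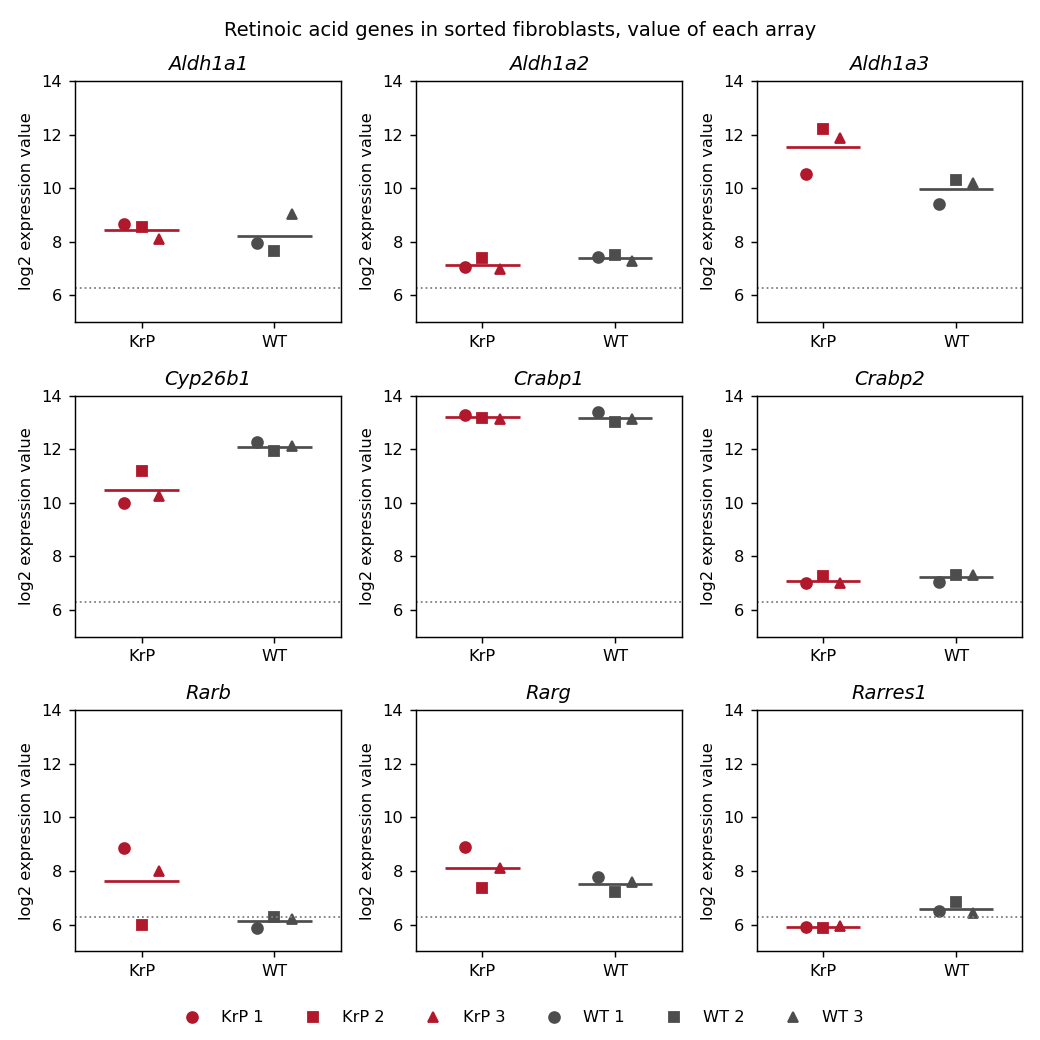
Log2 expression value of each of the 9 genes on each array, KrP left and WT right, with 1 symbol per replicate number and a bar at the group mean; the dotted line is the 95th percentile of olfactory receptor genes, 6.28. Cyp26b1 lies lower and Aldh1a3 higher in all 3 KrP samples, Rarb is high in KrP 1 and KrP 3 and at the WT level in KrP 2, and the Rarres1 values lie close to the dotted line.

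Cyp26b1 encodes a cytochrome P450 that hydroxylates retinoic acid and so removes it. It had log2 values of 10.00, 11.20 and 10.26 in KrP 1, KrP 2 and KrP 3, against 12.27, 11.92 and 12.11 in WT 1, WT 2 and WT 3. All KrP values lay under all WT values, and KrP 2 was the one closest to WT. Cyp26b1 fell 3.06-fold in KrP fibroblasts, with means of 10.49 ± 0.63 in KrP and 12.10 ± 0.18 in WT samples (SD, n = 3 each; log2 fold change -1.61 ± 0.28 SE, limma adjusted p = 0.0296, or 0.0166 with the replicate block). The labels do not say whether the samples of a group came from separate animals, so these p-values measure only the spread between samples. In sorted bulk cells, fewer cells that express a gene and less RNA per cell cannot be told apart. The log2 fold change was -1.97 without KrP 2 (adjusted p = 0.00131) and -1.37 without KrP 1 (0.0471). The call ended without KrP 3 (adjusted p = 0.158), WT 1 (0.0944), WT 2 (0.0733) or WT 3 (0.137), while the direction held in all 6 of these fits. The other Cyp26 enzymes were at background in both groups, with means of 5.71 in KrP and 5.77 in WT samples for Cyp26a1 (adjusted p = 0.847), and of 6.13 and 6.21 for Cyp26c1 (adjusted p = 0.891).

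The gene whose profile over the 6 arrays lay closest to that of Cyp26b1, among 22179 others, was Vdr, the vitamin D receptor. Vdr had log2 values of 8.15, 9.39 and 8.43 in KrP samples, against 10.48, 10.10 and 10.29 in WT samples. After each gene was centred on its own mean, the distance between the profiles was 0.04, with a Pearson correlation of 0.9999 over 6 samples. The next closest were AU020206 (distance 0.36) and Ajap1 (0.42). These samples fall into 2 groups that differ for all 4 genes, so the correlations describe a shared group difference as well as the shared position of KrP 2.

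The Aldh1a enzymes oxidise retinal to retinoic acid. Aldh1a3 had log2 values of 10.54, 12.21 and 11.89 in KrP samples, against 9.42, 10.29 and 10.19 in WT samples. Each KrP value lay above every WT value, and the sample numbered 1 was the lowest of both groups. The means were 11.55 ± 0.89 in KrP and 9.97 ± 0.48 in WT samples (SD, n = 3 each), a log2 fold change of 1.58 ± 0.42 SE (95% interval 0.62 to 2.54), or 2.99-fold. Aldh1a3 did not pass the test over all genes (limma adjusted p = 0.111), and passed with the replicate block (adjusted p = 0.00331), where 8.35% of all genes passed. It also passed without KrP 1 (log2 fold change 2.08, limma adjusted p = 0.0111), and had a log2 fold change of 1.25 without KrP 2 (adjusted p = 0.130). Nor did Aldh1a3 pass without KrP 3 (adjusted p = 0.38), WT 1 (0.22), WT 2 (0.19) or WT 3 (0.28).

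Aldh1a1, which also oxidises other aldehydes, had log2 values of 8.68, 8.56 and 8.09 in KrP samples, against 7.94, 7.64 and 9.02 in WT samples. The groups overlapped, with WT 3 the highest of all 6, and the log2 fold change was 0.24 ± 0.34 SE (95% interval -0.53 to 1.02, adjusted p = 0.799). Its sign turned to -0.04 without WT 2. Aldh1a2, the main retinoic acid making enzyme of the embryonic mesoderm, had 7.05, 7.40 and 6.99 in KrP samples, against 7.44, 7.52 and 7.28 in WT samples. KrP 2 lay within the WT range, and the log2 fold change was -0.27 ± 0.14 SE (95% interval -0.60 to 0.06, adjusted p = 0.420). Of the 3 enzymes of this step, Aldh1a3 had the log2 fold change farthest from 0.

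The enzymes were also set against each other within each array. The log2 value of Cyp26b1 minus that of Aldh1a3 was -0.54, -1.01 and -1.63 in KrP samples, against 2.85, 1.63 and 1.92 in WT samples. It was negative in each KrP sample and positive in each WT sample, and the group means differed by -3.19. The zero has no meaning in itself, because the probe sets differ in brightness, and only the change between groups can be read. An exact two-sided permutation test gave p = 0.10, the smallest that 3 against 3 samples allow, and 0.20 after Benjamini-Hochberg adjustment over the 8 differences examined. The groups were also separate for Cyp26b1 minus Aldh1a1 (a shift of -1.86), Cyp26b1 minus Aldh1a2 (-1.35) and Aldh1a2 minus Aldh1a3 (-1.85), each with an exact permutation p of 0.10. All separate differences hold Cyp26b1 or Aldh1a3, whose groups did not overlap on their own. The shifts follow from the log2 fold changes of the single genes and are not independent of them. Aldh1a1 minus Aldh1a3 shifted by -1.34 with overlap between the groups (exact permutation p = 0.20), as did Aldh1a1 minus Aldh1a2 by 0.51 (exact permutation p = 0.40).

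**Figure D2:**
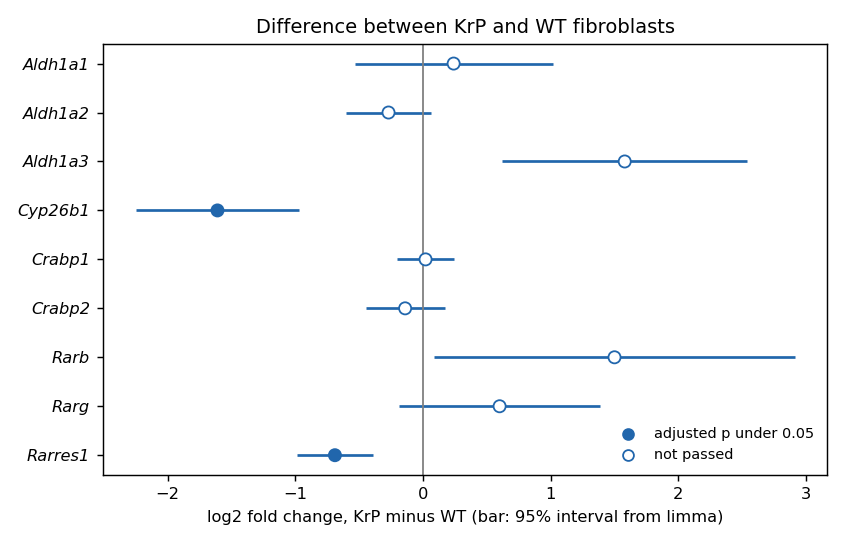
Log2 fold change (KrP minus WT, 3 arrays each) of the 9 genes with its 95% interval from limma; filled circles passed at an adjusted p under 0.05 over all genes. Cyp26b1 and Rarres1 are filled and lie below 0, Aldh1a3 and Rarb lie above 0 with wide intervals, and Crabp1 has the narrowest interval, around 0.02.

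Crabp1 and Crabp2 encode the small cytosolic proteins that bind retinoic acid. Crabp1 is known to pass it to Cyp26 enzymes and is also used as a marker of dermal papilla and upper dermal fibroblasts. It had log2 values of 13.29, 13.16 and 13.13 in KrP samples, against 13.38, 13.03 and 13.11 in WT samples. The 6 values lay close together, and the 95% interval of the log2 fold change, 0.02 ± 0.10 SE, ran from -0.20 to 0.24 (adjusted p = 0.953). Crabp2, known to deliver retinoic acid to its nuclear receptors, had 7.01, 7.27 and 6.99 in KrP samples, against 7.05, 7.32 and 7.32 in WT samples. These groups overlapped too, with a log2 fold change of -0.14 ± 0.13 SE (95% interval -0.45 to 0.17, adjusted p = 0.684). The within-array difference of Crabp1 minus Crabp2 shifted by 0.16 between the groups (exact permutation p = 0.60). Among 13 measured dermal papilla markers other than Crabp1, Sox18 rose (log2 fold change 1.96, limma adjusted p = 0.00551) and 0 fell. Their median log2 fold change was -0.14, and 3 rose and 3 fell with the block. Of all genes, 2.18% passed, and 8.35% with the block.

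Rarb and Rarg encode nuclear receptors for retinoic acid. Rarb, which is itself switched on by retinoic acid in many cell types, had log2 values of 8.85, 5.99 and 8.01 in KrP samples, against 5.86, 6.28 and 6.21 in WT samples. KrP 1 and KrP 3 lay far above every WT sample, whereas KrP 2 lay within the WT range. The WT mean, 6.12 ± 0.23, was under the background guide, and the KrP mean was 7.62 ± 1.47 (SD, n = 3 each). The log2 fold change of 1.5 ± 0.61 SE (95% interval 0.09 to 2.91) did not pass (limma adjusted p = 0.280, or 0.152 with the replicate block). Without KrP 2 it was 2.31 (limma adjusted p = 0.00412), in a fit where 5.03% of all genes passed. Without KrP 1 it was 0.88 (adjusted p = 0.524). Rarb did not pass without KrP 3 or any single WT sample either (adjusted p from 0.404 to 0.578).

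Rarg, the most abundant of these receptors in skin, had 8.89, 7.38 and 8.10 in KrP samples, against 7.78, 7.21 and 7.58 in WT samples. The order of the KrP samples was that of Rarb, with KrP 1 highest and KrP 2 lowest, and KrP 2 again lay within the WT range. The log2 fold change was 0.60 ± 0.34 SE (95% interval -0.19 to 1.39, adjusted p = 0.452), or 0.97 without KrP 2 (adjusted p = 0.0812) and 0.22 without KrP 1 (adjusted p = 0.802). The within-array difference of Rarb minus Rarg shifted by 0.90 with overlap (exact permutation p = 0.30). In KrP samples the order for Cyp26b1 was the opposite one, with KrP 2 highest and KrP 1 lowest. KrP 2 was the KrP sample closest to the WT mean for 64.2% of the genes that passed, so its place is not particular to these genes. Among genes induced by cell dissociation, Fos, Fosb, Jun, Atf3, Hspa1a and Hspa1b also had the KrP order of Rarb and Rarg. Junb, Egr1, Dusp1 and Ier2 did not. A link between any of these genes was not tested.

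**Figure D3:**
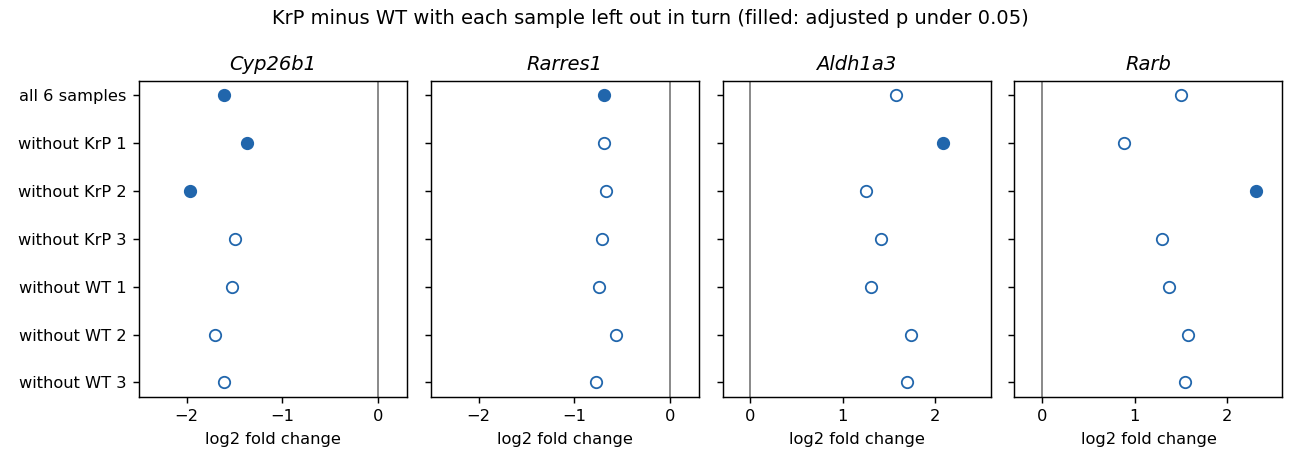
Log2 fold change (KrP minus WT) of Cyp26b1, Rarres1, Aldh1a3 and Rarb with all 6 samples and with each sample left out in turn; filled circles passed at an adjusted p under 0.05. Rarb runs from 0.88 without KrP 1 to 2.31 without KrP 2, whereas Rarres1 stays between -0.77 and -0.56 and is filled only with all 6 samples.

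Rarres1 is named for its response to retinoids, having been found as a gene induced by tazarotene in human skin cells, and encodes a membrane protein. It had log2 values of 5.90, 5.86 and 5.94 in KrP samples, against 6.49, 6.85 and 6.44 in WT samples. All KrP values were under the background guide of 6.28 and all WT values slightly above it. Rarres1 fell 1.62-fold, with means of 5.90 ± 0.04 in KrP and 6.59 ± 0.22 in WT samples (SD, n = 3 each; log2 fold change -0.69 ± 0.13 SE, limma adjusted p = 0.0403, or 0.0236 with the replicate block). The call ended when any 1 sample was left out, at an adjusted p of 0.0939 without KrP 1, 0.0536 without KrP 2, 0.180 without KrP 3, 0.0809 without WT 1, 0.0585 without WT 2 and 0.10 without WT 3. The closest profiles over the 6 arrays, among 22179 other genes, were those of Rtn4rl2 (distance 0.16), Kcnab2 (0.18) and Tank (0.21). Of these, Kcnab2 passed (limma adjusted p = 0.0388), and Rtn4rl2 (0.0979) and Tank (0.0689) did not. Rtn4rl2, Kcnab2 and Tank were, like Rarres1, highest in WT 2. Such likeness describes this shared position of WT 2 as well as a shared group difference.

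The promoter windows of these genes were read for the sequence that retinoic acid receptors bind, since Rarb stood out by its spread and is a known direct target. RefSeq windows of 300 bases (250 before to 50 after a start, GRCm38.p6) were at hand for 7 of the 9 genes, all but Aldh1a3 and Crabp2, with 9 windows in all. The receptor hexamer searched on both strands was AGGTCA or AGTTCA as well as GGGTCA or GGTTCA. It occurred in 4 of the 9 windows and in 43.7% of all 32851 windows. A direct repeat of the hexamer with a spacer of 5 bases, the classic retinoic acid response element, occurred in 1 of the 9 windows, that of Rarb, and in 0.0974% of all windows. Because Rarb was already known as a direct target, its match is no enrichment found in these data. Repeats with a spacer of 1 or 2 bases occurred in 0.222% and 0.268% of all windows and in 0 of these 9. The window of Rarb is printed because it holds the repeat, and those of Cyp26b1 and Rarres1 because these genes fell; capitals mark each hexamer.
Rarb promoter, chr14:16575427-16575726, minus strand: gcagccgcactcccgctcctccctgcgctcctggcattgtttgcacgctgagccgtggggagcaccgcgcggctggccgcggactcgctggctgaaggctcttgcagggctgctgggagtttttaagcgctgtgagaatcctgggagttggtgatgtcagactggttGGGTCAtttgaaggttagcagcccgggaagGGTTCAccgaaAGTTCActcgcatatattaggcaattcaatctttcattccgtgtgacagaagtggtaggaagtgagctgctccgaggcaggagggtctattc
Cyp26b1 promoter, chr6:84593761-84594060, minus strand: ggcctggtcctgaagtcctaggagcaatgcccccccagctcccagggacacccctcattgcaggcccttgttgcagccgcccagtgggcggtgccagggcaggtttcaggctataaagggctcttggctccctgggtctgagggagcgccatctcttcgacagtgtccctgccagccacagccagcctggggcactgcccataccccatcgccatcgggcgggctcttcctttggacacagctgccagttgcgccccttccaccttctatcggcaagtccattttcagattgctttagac
Rarres1 promoter, chr3:67515474-67515773, minus strand: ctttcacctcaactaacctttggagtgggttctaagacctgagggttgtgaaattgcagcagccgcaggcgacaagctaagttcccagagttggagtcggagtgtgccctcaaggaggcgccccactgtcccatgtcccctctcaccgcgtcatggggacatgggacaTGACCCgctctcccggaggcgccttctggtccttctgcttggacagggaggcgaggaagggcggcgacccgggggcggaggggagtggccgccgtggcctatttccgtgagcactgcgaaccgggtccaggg

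In the Rarb window, the repeat GGTTCAccgaaAGTTCA ran from position -53 to -37, with the start base as 0, and a further hexamer lay at -83 to -78. The Cyp26b1 window held no hexamer. That of Rarres1 held 1, on the other strand at -82 to -77. Rarg had a single hexamer at -225 to -220 of 1 of its 2 windows, and Aldh1a1 one at -49 to -44 of 1 of its 2 windows. A match is a description of the letters and shows no binding, and elements outside these windows were not examined. Of 31 genes with the 5-base repeat in a window, 13 were measured, Rarb included. Of these 13, 0 rose and 0 fell, where 2.18% of all genes passed, so so few genes can show little. Several, such as Cyp26a1, lay under the background guide in both groups.

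**Figure D4:**
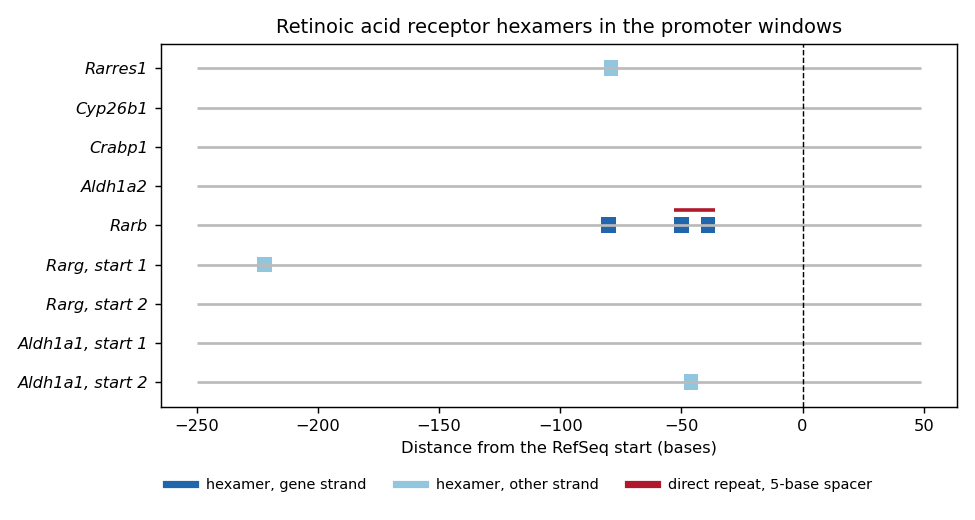
Position of retinoic acid receptor hexamers (blocks; dark on the gene's strand, light on the other) and of the direct repeat with a 5-base spacer (red line) in the 9 promoter windows, by distance in bases from the RefSeq start. The Rarb window holds 3 hexamers and the 1 direct repeat, at -53 to -37, and 5 of the windows hold no hexamer.

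The rest of the pathway was followed through 82 other genes grouped by role, of which 75 were measured. Of these, 3 rose, 3 fell and 69 did not pass (7 rose and 8 fell with the replicate block), where 2.18% of all genes passed (8.35% with the block). Their median log2 fold change was 0.00. Of 22 enzymes that make or reduce retinal, 0 rose and 0 fell, with log2 fold changes between -0.41 and 0.49 (0 rose and 1 fell with the block). Among them, Rdh10, the main retinol dehydrogenase of the embryo, had means of 8.97 in KrP and 9.03 in WT samples (adjusted p = 0.911), and Dhrs3, which reduces retinal back to retinol, had 10.21 and 10.09 (adjusted p = 0.822). Of 7 other enzymes that make or degrade retinoic acid, 0 passed (0 rose and 1 fell with the block, Cyp1b1, named after its values were seen: a log2 fold change of -1.35 with a limma adjusted p of 0.0714 unblocked and 0.0142 blocked). Among 12 genes of retinol uptake, transport and storage, 1 rose and 1 fell (2 rose and 2 fell with the block). Lpl, the lipoprotein lipase, fell 3.46-fold (log2 fold change -1.79 ± 0.16 SE, adjusted p = 0.00251), and the lipoprotein receptor Scarb1 rose 1.71-fold (adjusted p = 0.0323), both of which serve lipid handling in general. Stra6, the membrane receptor for the retinol carrier and itself a retinoic acid responsive gene, had log2 values of 7.31, 7.75 and 6.90 in KrP samples, against 8.37, 8.43 and 8.14 in WT samples. The groups did not overlap, and the log2 fold change of -0.99 ± 0.21 SE missed the threshold (limma adjusted p = 0.0597). Stra6 passed with the replicate block (0.00903) and without KrP 2 (0.0102). It did not pass when any other single sample was left out (adjusted p from 0.123 to 0.213). The carrier Rbp4 had means of 8.21 in KrP and 8.45 in WT samples (adjusted p = 0.427).

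Of 12 other receptors and partners, 1 rose and 1 fell (1 rose and 2 fell with the block). Over all genes, 2.18% passed, and 8.35% with the block. Rara had means of 8.21 in KrP and 8.15 in WT samples (adjusted p = 0.885), Rxra 10.51 and 10.35 (0.556), Rxrb 8.99 and 8.77 (0.486), and Rxrg 6.20 and 6.80 (0.180). The orphan receptor Rorb, whose natural ligand is not settled, rose 2.88-fold (log2 fold change 1.53 ± 0.21 SE, adjusted p = 0.0122), and the fatty acid sensor Ppard fell 1.56-fold (adjusted p = 0.0304). Of 26 measured genes known to respond to retinoic acid in various cells, 1 rose and 1 fell, with a median log2 fold change of -0.01 (4 rose and 3 fell with the block). Gprc5a, a receptor known for its induction by retinoic acid in human cells, fell 6.04-fold (limma adjusted p = 0.00131). It had log2 values of 7.56, 7.93 and 7.55 in KrP samples, against 10.65, 10.05 and 10.12 in WT samples. The orphan receptor Nr2f2 rose 1.87-fold (adjusted p = 0.0162).

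Leaving out single samples ended several of these calls. Lpl and Gprc5a passed in all 6 such fits. The adjusted p of Rorb was 0.0610 without KrP 3 and 0.0711 without WT 3, and that of Nr2f2 was 0.0764 without KrP 3, 0.0531 without WT 2 and 0.0980 without WT 3. Ppard lost its call without KrP 1 (0.0625), KrP 3 (0.154), WT 2 (0.0986) or WT 3 (0.160). Scarb1 lost it without KrP 1 (0.0516), KrP 3 (0.171), WT 1 (0.0796), WT 2 (0.0980) or WT 3 (0.142).

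**Figure D5:**
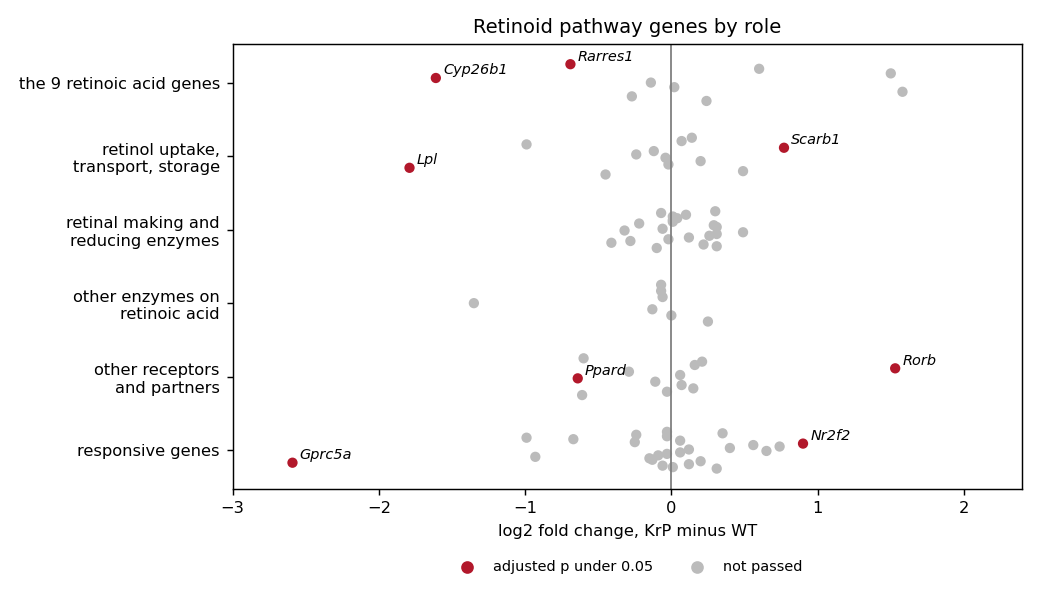
Log2 fold change (KrP minus WT) of the 9 retinoic acid genes and of 75 other measured pathway genes by role, 1 point per gene, in red where the adjusted p was under 0.05; genes in 2 lists are drawn in both. Most points lie near 0 in each row, and the enzymes of retinal hold no red point.

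Markers of other cell types and of handling were set beside these genes. Over all genes, 2.18% passed in either direction, and 8.35% with the replicate block. Of 8 endothelial markers 2 (Cldn5 and Tek) were lower and 0 higher (3 and 0 with the block). Their summed level was 9.71 to 10.00 (log2) in KrP and 10.03 to 10.42 in WT samples. The endothelial markers did not move together. Their log2 fold changes ran from -1.41 for Kdr to 0.54 for Cdh5, with a median of -0.06. Of 10 keratinocyte markers 0 passed, and their summed level was 10.10 to 10.26 in KrP and 10.27 to 10.82 in WT samples. WT 2 was the highest, with log2 values of 7.72 for Perp, 7.74 for Cdh1, 7.59 for Krt14, 7.23 for Dsp and 6.33 for Epcam, each above the other 5 samples. Krt1 (6.38) and Trp63 (6.14) were also highest in WT 2. By contrast, Sfn (9.61) and Krt15 (5.32) were highest in WT 3, and Krt10 (7.87) in KrP 1 and KrP 2. Some markers of other cell types, such as Pecam1 (7.13) and Lyz2 (6.11), were highest in WT 2 as well. Rarres1 was also highest in WT 2, and without that sample its log2 fold change was -0.56 (limma adjusted p = 0.0585). Of 7 mural and smooth muscle markers 1 (Cspg4) was lower and 0 higher (1 lower and 1 higher with the block), while the summed level was higher in every KrP sample, at 11.21 to 12.56, than in the WT samples, at 10.70 to 11.13. That sum is mostly Acta2, the highest of these markers in every sample, and the median log2 fold change of the list was 0.03. Acta2 had log2 values of 10.69, 11.08 and 12.36 in KrP samples, against 9.64, 10.17 and 10.38 in WT samples (log2 fold change 1.31, limma adjusted p = 0.154). Of 9 blood cell markers 1 (Csf1r) was higher, at 10.19 to 10.42 and 10.06 to 10.47. The means of Pecam1 (6.68 in KrP, 6.73 in WT) and Epcam (5.06 in KrP, 5.45 in WT) lay near or under the background guide. Of 10 genes induced by cell dissociation 0 passed (4 rose with the block), with a summed level of 14.84 to 15.38 in KrP and 14.60 to 14.85 in WT samples. Of 10 fibroblast markers 0 passed (4 rose with the block), at 15.56 to 15.84 in KrP and 15.30 to 15.55 in WT samples. The part of other cells or of dissociation in the values of Cyp26b1, Rarres1, Aldh1a3 and Rarb was not tested.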

How the data were processed

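RNA of sorted fibroblasts (100 ng per sample) was measured on 6 expression arrays. The deposited table holds log2 values made by the authors, 1 per probe set and array. Per the submitters' processing notes, Partek and RMA were used; their versions and roles, any filter and the genome build are not stated there. The number of arrays limits the precision. Of 34390 probe sets, 23521 had 1 gene in the platform annotation, 1814 several and 9055 none. For a gene with several, the probe set with the highest mean was taken. Differences were fitted over 22180 genes with limma 3.58.1 in R 4.3.3 (trend on mean level, 3 samples per group, no block), with Benjamini-Hochberg adjustment over all genes, and the code was tested on simulated data. Permutation tests used scipy 1.17.1, and figures matplotlib 3.10.9. Pathway genes were named where they passed (up to 5 per list and direction), beside chosen receptors, Cyp26 enzymes and retinol genes named whatever their value. For genes that passed, the 3 closest profiles were named. The genes and lists were chosen with earlier results of these data known.

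Both groups carry replicate numbers 1 to 3. Deviations from the group mean correlated by 0.414, 0.350 and 0.120 over genes between same-numbered samples (0.367, 0.330 and 0.091 over all probe sets). No label says what a shared number stands for; the pairing rests on these correlations, and blocked p-values may be too small for that reason.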

Additional observations from a re-analysis of the deposited data

How the results depend on the processing

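The direction of Cyp26b1, Rarres1, Aldh1a3, Rarb, Rarg, Aldh1a2 and Crabp2 was the same in all 15 alternatives in which each was tested; that of Aldh1a1 and Crabp1, near 0, was not. The calls of Cyp26b1 and Rarres1 held without the trend, with a robust prior, without the lower 25% of genes, and with quantile normalisation, median centring, averaged probe sets, array weights or the replicate block; Rarres1 itself was left out with the lower 50% of genes, where 1 of 8 genes passed. With the replicate block, 3 of the 9 genes passed (1851 of all genes and 15 of the other pathway genes). With arrays weighted, 7 of the 9 passed, beside 6410 of all genes and 28 of the other pathway genes; the weights ran from 0.409 to 7.91, the highest for KrP 3. Leaving out 1 sample moved the count from 483 genes to between 85 (without KrP 3) and 1116 (without KrP 2), that of the 9 genes from 2 to between 0 and 2, and that of the other pathway genes from 6 to between 2 and 9. Ppard lost its call without the trend (adjusted p = 0.0534), and Stra6 passed without the lower 50% of genes (0.0494). Values near the background guide of 6.28, as for Rarres1 and Rarb in WT samples, limit the size of the differences that can be measured. The cause of these changes was not tested.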
